A study of Schizosaccharomyces pombe with 8 samples.

Results

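The noncoding RNAs described here are the features of the fission yeast (Schizosaccharomyces pombe) count tables named SPNCRNA with a number below 600 and without the word antisense in the name. There were 350 of them among 6973 features, and they were followed across 4 genotypes, each represented by 2 libraries. All 4 strains were homothallic (h90), so that a culture can switch mating type and mate with itself. The genotypes were wt with no listed deletion, mot2∆ (mot2::natMX), mamRNA∆ (mamRNA::natMX) and mot2∆ mamRNA∆ (mamRNA::hygTK, mot2::kanMX). The deletion cassettes of mot2∆ mamRNA∆ differed from those of the strains with 1 deletion, so a cassette effect and an effect of combining the deletions cannot be told apart. Cells were grown in EMM minimal medium for 2 days at 30 °C and taken in exponential growth at an optical density of 0.6, and rRNA-depleted total RNA was read from both fragment ends with 75-nt reads. The labels do not say that the 2 libraries of a genotype came from separate cultures or clones, so the p-values measure the spread between these libraries, which may be technical.

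Mmi1 is a YTH-domain protein that binds clusters of UNAAAC hexamers in meiotic transcripts and hands them to the nuclear exosome during vegetative growth, which keeps meiotic genes silent in dividing cells. Mot2 is the ubiquitin ligase subunit of the Ccr4-Not complex and acts on Mei2, an RNA-binding inhibitor of Mmi1, and mamRNA is a long noncoding RNA bound by Mmi1 and Mei2 that serves as a scaffold between them. Several long noncoding RNAs carry Mmi1 hexamers themselves, among them sme2, the partner of Mei2 in meiosis, and the nam RNAs, named for their association with Mmi1. The numbered SPNCRNA series is a catalogue of transcripts without an assigned protein product, and it gathers snoRNAs, centromeric transcripts, antisense transcripts and stretches beside or inside coding genes.

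Library totals ran from 22381332 to 34667534 counts, and the noncoding RNAs took between 0.334% and 0.5% of them, with the highest shares in the mamRNA∆ libraries (0.457% and 0.5%). The deleted gene mot2 stood at 22.3 and 23.4 counts per 1000000 (CPM) in wt and at 18.9 and 18.8 in mamRNA∆, against 4.11 and 4.26 in mot2∆ and 2.72 and 2.77 in mot2∆ mamRNA∆. CPM here refer to library totals after TMM scaling. Features of rRNA took 2.28% of the first wt library and 0.134% to 0.735% of the other 7. No pair of libraries of 1 genotype agreed within sampling noise, and the median absolute log2 difference between the 2 libraries of a genotype, over the 221 well counted noncoding RNAs, was 0.164 to 0.227.

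Of the 350 noncoding RNAs, 286 had an entry under their own name in the RefSeq annotation (ASM294v3), 2 had been merged there into other genes (SPNCRNA.532 into nam3 and SPNCRNA.543 into smp2) and 62 had none. The build behind the counts is not given in the sources used here, so positions and sequences are RefSeq's and were joined to the counts by name alone. Of the 286, 117 lay on chromosome I, 116 on II and 53 on III, with a median length of 516 bases (56 to 3776). They were clear of coding genes in 235 cases and overlapped one in 51, on the same strand in 34 and on the opposite strand in 17. The Mmi1 hexamer, written TNAAAC in DNA letters and counted on the strand of the RNA, occurred at least once in 67.1% of the 286, beside 70.1% of the 7133 long noncoding RNAs of the annotation.

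The sequences below, all from RefSeq ASM294v3, are printed 5′ to 3′ along the RNA with each TNAAAC match in capitals. They belong to some of the noncoding RNAs named in the results and do not stand for the called RNAs. Among them, nam5 and nam6 were not called in any comparison, and SPNCRNA.90, called but not shown, holds 0 hexamers. SPNCRNA.530 is the small nucleolar RNA sno530 and is given whole (chrI:1966483-1966635, reverse strand). It was among the RNAs with the largest falls in mot2∆.
SPNCRNA.530: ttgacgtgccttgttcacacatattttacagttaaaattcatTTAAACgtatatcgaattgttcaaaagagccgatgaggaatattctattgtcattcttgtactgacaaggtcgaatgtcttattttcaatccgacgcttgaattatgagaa
SPNCRNA.230 and SPNCRNA.361 are nam5 and nam6, centromeric RNAs with 9 hexamers each, a number reached by 0.360% and 0.364% of long noncoding RNAs within 10% of their length. Both shares count nam5 and nam6 themselves, and each share below likewise counts the RNA it describes. The 200-base windows with the most matches (chrI:3754059-3754258, forward strand and chrII:1610022-1610221, forward strand) hold 4 of them each and show how alike the copies are.
SPNCRNA.230: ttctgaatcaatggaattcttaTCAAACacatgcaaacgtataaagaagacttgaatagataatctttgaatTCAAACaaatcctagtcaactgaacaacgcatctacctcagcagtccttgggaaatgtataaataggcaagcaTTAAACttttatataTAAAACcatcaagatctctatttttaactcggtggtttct
SPNCRNA.361: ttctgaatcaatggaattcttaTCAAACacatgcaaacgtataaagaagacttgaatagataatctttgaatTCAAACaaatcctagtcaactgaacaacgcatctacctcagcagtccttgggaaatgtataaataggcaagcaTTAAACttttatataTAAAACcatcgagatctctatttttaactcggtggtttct
SPNCRNA.279 holds 8 hexamers in 989 bases, reached by 0.575% of long noncoding RNAs of like length, and fell on loss of mamRNA. A 200-base window with 3 of them is shown (chrI:5504798-5504997, forward strand).
SPNCRNA.279: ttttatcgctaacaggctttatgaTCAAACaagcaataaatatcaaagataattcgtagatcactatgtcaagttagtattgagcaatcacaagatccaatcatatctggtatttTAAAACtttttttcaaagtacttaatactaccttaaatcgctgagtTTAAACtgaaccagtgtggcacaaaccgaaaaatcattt
SPNCRNA.136, near the left end of chromosome I, holds 3 hexamers in 695 bases, reached by 18.2%, and its first 200 bases (chrI:40795-40994, forward strand), shown here, hold an adjacent pair of them. It rose in mot2∆ and lay below wt in mot2∆ mamRNA∆.
SPNCRNA.136: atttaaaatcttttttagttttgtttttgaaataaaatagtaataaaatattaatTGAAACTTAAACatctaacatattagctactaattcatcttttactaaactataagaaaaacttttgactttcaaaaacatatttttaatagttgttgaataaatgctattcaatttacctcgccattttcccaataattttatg
SPNCRNA.256, lower in mamRNA∆, holds 2 hexamers in 493 bases, reached by 24.5%, both in the 200-base window shown (chrI:4962614-4962813, forward strand).
SPNCRNA.256: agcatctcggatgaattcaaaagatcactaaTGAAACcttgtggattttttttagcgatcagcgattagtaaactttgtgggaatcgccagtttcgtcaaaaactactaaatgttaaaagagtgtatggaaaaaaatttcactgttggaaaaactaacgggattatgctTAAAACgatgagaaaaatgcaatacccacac
On the strand opposite the RNA the same letters, counted over each whole RNA, matched 0 times in sno530 and SPNCRNA.256, 1 time each in nam5 and nam6, 2 times in SPNCRNA.136 and 3 times in SPNCRNA.279. A match is a description of the letters and does not show binding.

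The noncoding RNAs were split by their mean count over the 8 libraries, at 10 counts, into 221 that were well counted and 129 near 0. The well counted RNAs just inside the limit were SPNCRNA.156, SPNCRNA.493 and SPNCRNA.239 at 11.12, 10.62 and 10.25 counts, and those just outside were SPNCRNA.282, SPNCRNA.187 and SPNCRNA.313 at 9.5, 9.125 and 9.125. Over all 350 the median of the mean counts was 22.2, 89 reached 100 counts and 16 reached 1000. Among the 129 near 0, 15 had no count in any library and 49 never exceeded 3 counts. A count of 0 in 1 library allows a level of up to 0.0847 to 0.141 CPM (3 counts, counting error only), depending on its depth. All 221 well counted RNAs entered the test, and 26 of the 129 near 0 passed its filter on low counts.

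**Figure D1:**
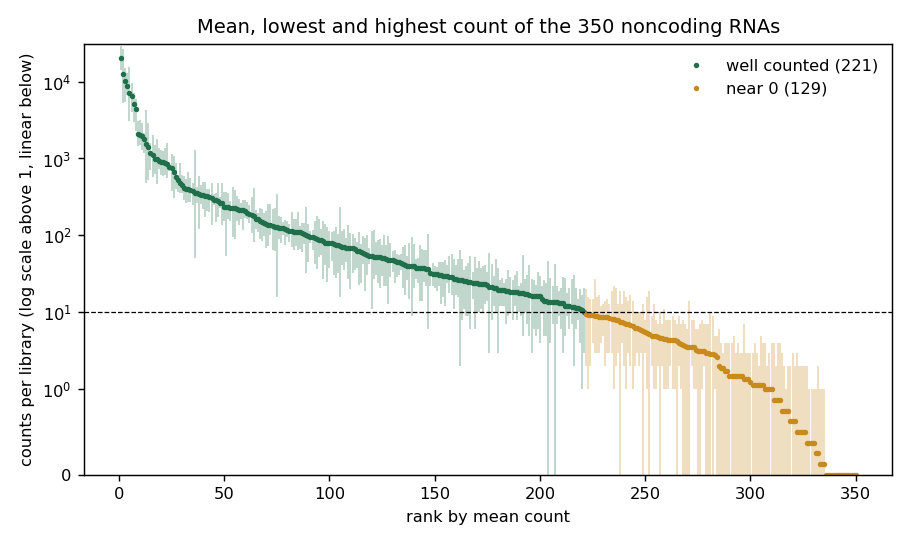
Mean count (points) and lowest and highest library (bars) of each of the 350 noncoding RNAs, ranked by mean count, with the vertical axis in counts per library, logarithmic above 1 and linear below. The dashed line is the limit of 10 counts that separates the 221 well counted from the 129 near 0, and 15 RNAs lie at 0.

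Of the 10 RNAs with the highest levels, most lay inside coding genes or had no entry of their own. SPNCRNA.92, which lies wholly inside pma1, the gene of the plasma membrane proton ATPase, on the opposite strand, was counted at 659.7 and 576 CPM in wt, 599 and 535 in mot2∆, 765 and 827 in mamRNA∆, then 736 and 699 in mot2∆ mamRNA∆. It was higher in mamRNA∆ by a log2 fold change of 0.37 ± 0.095 (edgeR adjusted p = 0.00855), while pma1 moved by 0.42 ± 0.10 (edgeR adjusted p = 0.00705). SPNCRNA.133 and SPNCRNA.134 lie inside fhn1, an eisosome assembly gene of the cell cortex, on the same and on the opposite strand. SPNCRNA.133 stood at 249 and 272 CPM in wt, 408 and 300.2 in mot2∆, 615 and 738 in mamRNA∆, then 326 and 294 in mot2∆ mamRNA∆ and SPNCRNA.134 at 145 and 162 CPM in wt, 216 and 164 in mot2∆, 368 and 440.2 in mamRNA∆, then 188 and 172 in mot2∆ mamRNA∆, so the mamRNA∆ libraries lay above all others for both. Their log2 fold changes in mamRNA∆ were 1.38 ± 0.13 (edgeR adjusted p = 9.27e-06) and 1.40 ± 0.12 (edgeR adjusted p = 4.18e-06), beside 0.999 ± 0.12 (edgeR adjusted p = 6.30e-05) for fhn1. Per kilobase, SPNCRNA.92 drew 1.28 times the counts of pma1 and SPNCRNA.134 drew 1.42 times those of fhn1. Over the 9 noncoding RNAs nested in a coding gene on the opposite strand this ratio had a median of 0.651 (0.027 to 4.74), and over the 8 nested on the same strand 0.537. Reads of such an RNA and of the gene around it cannot be told apart in these counts, since no use of strand in counting is stated.

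The remaining RNAs of the highest levels moved less or shared their neighbour's change. SPNCRNA.507, SPNCRNA.510 and SPNCRNA.504 had no entry of their own. SPNCRNA.507 stood at 256 and 269.8 CPM in wt, 283 and 294 in mot2∆, 415 and 428 in mamRNA∆, then 368 and 382 in mot2∆ mamRNA∆ and SPNCRNA.504 at 105 and 89.2 CPM in wt, 114 and 156 in mot2∆, 173 and 169 in mamRNA∆, then 159 and 184 in mot2∆ mamRNA∆, and each was lowest in wt without passing the fold threshold in any comparison with wt (log2 fold changes in mot2∆ mamRNA∆ of 0.51 and 0.82). SPNCRNA.510 stayed between 219 and 365 CPM in the 8 libraries. SPNCRNA.570, which shares 60.5% of its length with SPBC30B4.09, fell to 101 and 97.7 CPM in mot2∆ mamRNA∆ from 248 and 234 in wt, a log2 fold change of -1.28 ± 0.078 (edgeR adjusted p = 1.05e-07), beside -1.27 ± 0.078 (edgeR adjusted p = 1.07e-07) for that gene. SPNCRNA.135, inside SPBC365.16, moved with loss of Mot2 more positively in mamRNA∆ cells than in cells with mamRNA, by 1.099 ± 0.13 (edgeR adjusted p = 2.74e-05) as the difference between the 2 responses, beside 0.99 ± 0.13 (edgeR adjusted p = 5.63e-05) for SPBC365.16. That call fell under the fold threshold without the first wt or the second mot2∆ library (0.97 and 0.98) and with scaling by total counts (0.98). SPNCRNA.298, inside the hexose transporter gene ght4, lay between 49.6 and 104 CPM and was not called in any comparison.

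On loss of Mot2 alone (mot2∆ against wt), the well counted noncoding RNAs that moved fell more often than they rose. A feature was called where the adjusted p of edgeR's quasi-likelihood test (Benjamini-Hochberg over all 6620 features tested) lay under 0.05 with a log2 fold change past 1 in size, and log2 fold changes are given ± SE. 21 of the 221 well counted noncoding RNAs were called higher, 9.5% beside 4.68% of the 6620 features tested, and 37 were called lower, 16.7% beside 3.88%. Their median log2 fold change was -0.15, beside -0.0069 over all features tested. In bulk RNA, fewer cells with an RNA and less RNA per cell cannot be told apart. SPNCRNA.276, which overlaps gto1 (annotated as an alpha-glucosidase) on the same strand, rose. It was counted at 3.33 and 4.12 CPM in wt, 42.9 and 34.4 in mot2∆, 2.70 and 3.45 in mamRNA∆, then 1.78 and 1.68 in mot2∆ mamRNA∆, so the mot2∆ libraries stood apart from all 6 others. The log2 fold change was 3.36 ± 0.16 (edgeR adjusted p = 6.81e-09), and that of gto1 was 2.59 ± 0.098 (edgeR adjusted p = 1.03e-09). SPNCRNA.30, next to SPNCRNA.276 on the opposite strand and 487 bases from gto1, had 1 and 8 counts in wt, 47 and 45 in mot2∆, 1 and 6 in mamRNA∆, then 0 and 2 in mot2∆ mamRNA∆. Its log2 fold change was 3.01 ± 0.50 (edgeR adjusted p = 2.71e-04).

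The silent mating-type cassette mat3 is flanked by SPNCRNA.389 and SPNCRNA.390, and both rose in mot2∆. SPNCRNA.390 had 3 and 3 counts in wt, 31 and 33 in mot2∆, 11 and 6 in mamRNA∆, then 38 and 32 in mot2∆ mamRNA∆ and SPNCRNA.389 3 and 4 counts in wt, 19 and 29 in mot2∆, 4 and 7 in mamRNA∆, then 25 and 16 in mot2∆ mamRNA∆, with no overlap between mot2∆ and wt. The log2 fold changes were 3.06 ± 0.44 (edgeR adjusted p = 9.53e-05) and 2.43 ± 0.47 (edgeR adjusted p = 8.00e-04), and they were also called in mot2∆ mamRNA∆ against wt (3.13 and 2.14). All 75-base windows of SPNCRNA.389 also occur in SPNCRNA.390, so reads of the 2 RNAs cannot be told apart over that stretch. Of the windows of SPNCRNA.390, 48.3% are shared with SPNCRNA.389, but 96.95% occur more than once in the genome. Part of the reads may therefore have come from another place than the flanks of mat3, which was not tested. SPNCRNA.317, which overlaps new14, had 1 and 0 counts in wt, 8 and 10 in mot2∆, 6 and 4 in mamRNA∆, then 37 and 42 in mot2∆ mamRNA∆. With 1 count over the 2 wt libraries, the ratio of mot2∆ to wt was 14.5 (exact 95% interval 2.28 to 602, counting error only). SPNCRNA.538, with no entry of its own, stood at 2.54 and 2.82 CPM in wt, 12.1 and 11.9 in mot2∆, 8.66 and 8.62 in mamRNA∆, then 6.32 and 7.23 in mot2∆ mamRNA∆ and was higher in every mutant, by 2.15 ± 0.14 (edgeR adjusted p = 1.16e-07) in mot2∆.

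Of the 5 RNAs named for their falls, SPNCRNA.240 and sno530 were counted most deeply. SPNCRNA.240 overlaps lsk1, the gene of a cyclin-dependent kinase of RNA polymerase II, by 10.6% of its length on the same strand. It stood at 15.3 and 14.9 CPM in wt, 2.79 and 2.70 in mot2∆, 2.93 and 3.42 in mamRNA∆, then 4.69 and 4.89 in mot2∆ mamRNA∆, with both wt libraries above all 6 mutant libraries. The log2 fold change was -2.46 ± 0.13 (edgeR adjusted p = 2.46e-08), while lsk1 moved by -0.034 ± 0.063 (edgeR adjusted p = 0.661). The snoRNA sno530 (SPNCRNA.530) stood at 6.34 and 5.57 CPM in wt, 0.895 and 0.878 in mot2∆, 1.94 and 2.37 in mamRNA∆, then 2.54 and 3.20 in mot2∆ mamRNA∆, lowest in mot2∆. Its log2 fold change was -2.74 ± 0.21 (edgeR adjusted p = 4.87e-07), and that of ppk13, a protein kinase gene 24 bases away, was -0.37 ± 0.089 (edgeR adjusted p = 0.00313). SPNCRNA.90, a 146-base RNA between SPAC26F1.07 and the phosphoglycerate mutase gene gpm1, stood at 3.15 and 2.89 CPM in wt, 0.663 and 0.488 in mot2∆, 1.12 and 0.537 in mamRNA∆, then 1.24 and 1.42 in mot2∆ mamRNA∆ and changed by -2.38 ± 0.30 (edgeR adjusted p = 2.95e-05). SPNCRNA.319, which overlaps the calcium ATPase gene cta3, had 23 and 31 counts in wt, 2 and 5 in mot2∆, 6 and 8 in mamRNA∆, then 10 and 8 in mot2∆ mamRNA∆ and changed by -3.22 ± 0.40 (edgeR adjusted p = 3.07e-05). SPNCRNA.274, partly opposite the transcription factor gene klf1, had 24 and 41 counts in wt, 7 and 6 in mot2∆, 28 and 53 in mamRNA∆, then 12 and 22 in mot2∆ mamRNA∆ and changed by -2.61 ± 0.45 (edgeR adjusted p = 3.43e-04), beside -1.06 ± 0.077 (edgeR adjusted p = 3.69e-07) for klf1. The 12 well counted RNAs called higher whose values are not given one by one had log2 fold changes between 1.05 and 2.07 (median 1.26), and the 32 such RNAs called lower between -2.36 and -1.01 (median -1.40). Of the 251 tested noncoding RNAs numbered from 600 to below 1200, 7.17% were called higher and 9.96% lower, and of the 210 numbered 1200 and above 6.67% and 14.8%.

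**Figure D2:**
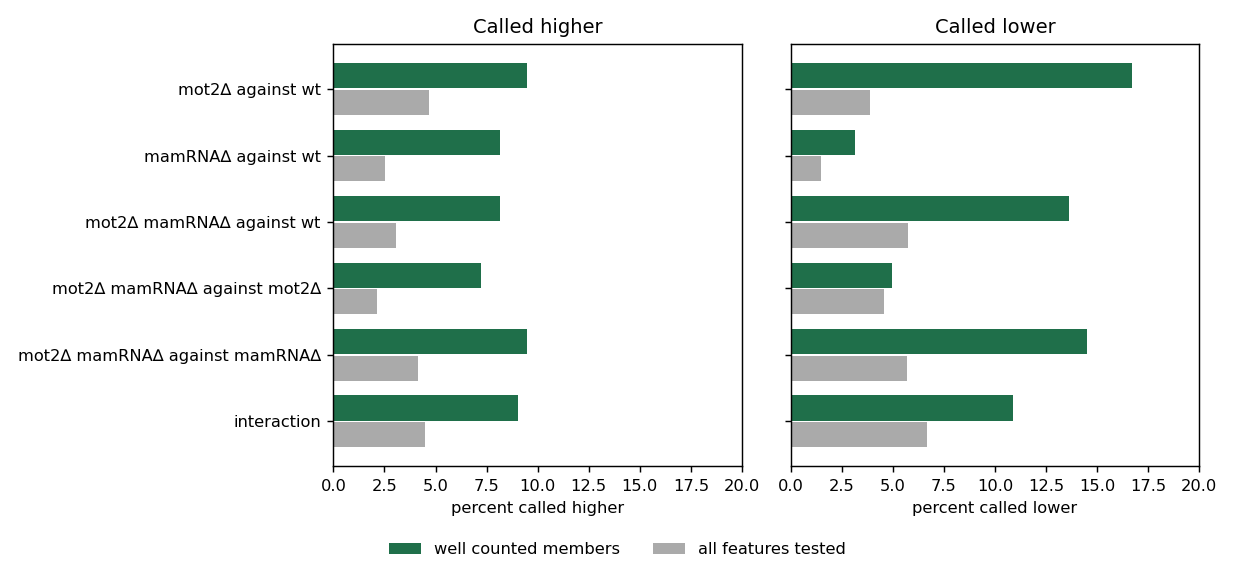
Percent of the 221 well counted noncoding RNAs (green) and of the 6620 features tested (grey) called higher (left) and lower (right) in each comparison, by an edgeR adjusted p under 0.05 with a log2 fold change past 1 in size. The widest gap is for loss of Mot2, with 16.7% of the noncoding RNAs called lower beside 3.88% of all features.

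On loss of mamRNA alone (mamRNA∆ against wt), the calls ran the other way. 18 of the 221 well counted noncoding RNAs were called higher, 8.14% beside 2.52% of the 6620 features tested, and 7 were called lower, 3.17% beside 1.47%. Their median log2 fold change was 0.064, beside -0.018 over all features tested. The share called lower rests on 7 RNAs. SPNCRNA.448, between the transporter gene SPBPB2B2.16c and SPBPB2B2.17c near the right end of chromosome II, stood at 22.5 and 21.3 CPM in wt, 32.6 and 24.6 in mot2∆, 121 and 122 in mamRNA∆, then 26.5 and 26.5 in mot2∆ mamRNA∆, so both mamRNA∆ libraries lay far above the other 6. The log2 fold change was 2.48 ± 0.11 (edgeR adjusted p = 1.37e-08), beside 2.66 ± 0.17 (edgeR adjusted p = 3.16e-07) for SPBPB2B2.16c. Of its 75-base windows 94.6% occur elsewhere in the genome, so part of its reads may have come from another copy, which was not tested. SPNCRNA.113, with no entry of its own, had 21 and 50 counts in wt, 16 and 16 in mot2∆, 196 and 236 in mamRNA∆, then 21 and 22 in mot2∆ mamRNA∆ and changed by 2.184 ± 0.21 (edgeR adjusted p = 8.19e-06). SPNCRNA.421, between cbp1 (annotated as an ARS-binding protein) and the glucosidase gene exg1, had 8 and 8 counts in wt, 21 and 24 in mot2∆, 30 and 43 in mamRNA∆, then 21 and 18 in mot2∆ mamRNA∆ and changed by 1.75 ± 0.32 (edgeR adjusted p = 0.00113). SPNCRNA.93, 645 bases from pma1, had 11 and 10 counts in wt, 13 and 13 in mot2∆, 42 and 50 in mamRNA∆, then 14 and 12 in mot2∆ mamRNA∆ and changed by 1.69 ± 0.28 (edgeR adjusted p = 5.72e-04), and its mamRNA∆ libraries stood above all others.

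Among the RNAs that fell in mamRNA∆ were some that also fell in mot2∆, a comparison that shares the wt libraries. SPNCRNA.240 changed by -2.24 ± 0.13 (edgeR adjusted p = 9.32e-08), SPNCRNA.319 by -2.35 ± 0.35 (edgeR adjusted p = 2.63e-04), SPNCRNA.90 by -1.89 ± 0.27 (edgeR adjusted p = 2.28e-04) and sno530 (SPNCRNA.530) by -1.45 ± 0.17 (edgeR adjusted p = 5.24e-05). SPNCRNA.256, between the biotin transporter gene vht1 and the silencing factor gene clr2, stood at 2.58 and 2.79 CPM in wt, 0.829 and 0.975 in mot2∆, 0.692 and 0.621 in mamRNA∆, then 1.36 and 1.45 in mot2∆ mamRNA∆. It changed by -2.03 ± 0.22 (edgeR adjusted p = 2.13e-05), and clr2 by -0.92 ± 0.076 (edgeR adjusted p = 2.47e-06). SPNCRNA.279, one of the RNAs richest in hexamers for its length, had 27 and 27 counts in wt, 22 and 21 in mot2∆, 7 and 11 in mamRNA∆, then 21 and 17 in mot2∆ mamRNA∆, with the mamRNA∆ libraries below all others. It changed by -2.0 ± 0.33 (edgeR adjusted p = 5.21e-04). The sulfate transporter gene SPAC869.05c, 122 bases away, changed by -0.79 ± 0.10 (edgeR adjusted p = 1.12e-04) in the same comparison and by 1.66 ± 0.10 (edgeR adjusted p = 8.84e-08) in mot2∆, where SPNCRNA.279 changed by -0.65 (edgeR adjusted p = 0.0592). SPNCRNA.538 (8.66 and 8.62 CPM in mamRNA∆) changed by 1.68 ± 0.14 (edgeR adjusted p = 2.88e-06). The 11 well counted RNAs called higher whose values are not given one by one had log2 fold changes between 1.05 and 1.56 (median 1.19), and the 1 such RNA called lower had -1.04. Of the 251 tested noncoding RNAs numbered from 600 to below 1200, 9.56% were called higher and 1.59% lower, and of the 210 numbered 1200 and above 6.19% and 1.43%.

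In cells without Mot2 and mamRNA, compared with wt, 18 of the 221 well counted noncoding RNAs were called higher, 8.14% beside 3.04% of the 6620 features tested, and 30 were called lower, 13.6% beside 5.76%. Their median log2 fold change was -0.072, beside -0.0094 over all features tested. SPNCRNA.139, 578 bases from the siderophore transporter gene str3, stood at 0.751 and 1.05 CPM in wt, 2.62 and 5.07 in mot2∆, 1.19 and 1.30 in mamRNA∆, then 10.4 and 10.3 in mot2∆ mamRNA∆, higher in mot2∆ and highest in mot2∆ mamRNA∆. The log2 fold change was 3.49 ± 0.29 (edgeR adjusted p = 1.13e-06), beside 6.43 ± 0.42 (edgeR adjusted p = 1.95e-07) for str3. SPNCRNA.543, merged in the annotation into smp2, had 6 and 15 counts in wt, 23 and 24 in mot2∆, 8 and 10 in mamRNA∆, then 100 and 104 in mot2∆ mamRNA∆ and changed by 2.90 ± 0.27 (edgeR adjusted p = 2.56e-06), with only mot2∆ mamRNA∆ far above wt. SPNCRNA.317 had 79 counts in mot2∆ mamRNA∆ against 1 in wt, a ratio of 61.0 (exact 95% interval 10.6 to 2441, counting error only), and its partly overlapping gene new14 changed by 3.49 ± 0.41 (edgeR adjusted p = 1.72e-05). Among those that fell, SPNCRNA.136, with 15 and 16 counts in wt and 2 and 3 in mot2∆ mamRNA∆, had the largest called fall of the well counted RNAs, -2.94 ± 0.51 (edgeR adjusted p = 3.62e-04). SPNCRNA.540, which overlaps SPBC3E7.17 beside the heat shock gene hsp16, stood at 2.91 and 4.09 CPM in wt, 1.76 and 1.30 in mot2∆, 1.71 and 2.03 in mamRNA∆, then 0.756 and 0.363 in mot2∆ mamRNA∆ and changed by -2.64 ± 0.31 (edgeR adjusted p = 1.52e-05), beside -2.48 ± 0.52 (edgeR adjusted p = 0.00140) for SPBC3E7.17. SPNCRNA.275, beside the amino acid transporter gene isp5, stood at 1.50 and 2.17 CPM in wt, 0.431 and 0.293 in mot2∆, 2.70 and 2.71 in mamRNA∆, then 0.484 and 0.363 in mot2∆ mamRNA∆ and changed by -2.12 ± 0.30 (edgeR adjusted p = 7.11e-05), beside -1.82 ± 0.26 (edgeR adjusted p = 8.37e-05) for SPAC1039.08, which it overlaps. SPNCRNA.293, between pfl7 and abc3, had 11 and 23 counts in wt, 5 and 7 in mot2∆, 28 and 56 in mamRNA∆, then 5 and 6 in mot2∆ mamRNA∆ and changed by -1.97 ± 0.51 (edgeR adjusted p = 0.00531), a call lost without the second wt library (log2 fold change -1.55, edgeR adjusted p = 0.091). SPNCRNA.301, 44 bases from the transcription factor gene SPBC1773.16c, had 20 and 38 counts in wt, 11 and 12 in mot2∆, 44 and 54 in mamRNA∆, then 6 and 13 in mot2∆ mamRNA∆ and changed by -1.96 ± 0.38 (edgeR adjusted p = 7.43e-04). The 13 well counted RNAs called higher whose values are not given one by one had log2 fold changes between 1.120 and 2.06 (median 1.42), and the 23 such RNAs called lower between -1.94 and -1.04 (median -1.26). Called higher and lower were 5.98% and 6.37% of the 251 tested noncoding RNAs numbered from 600 to below 1200. For the 210 numbered 1200 and above the shares were 4.29% and 12.4%.

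**Figure D3:**
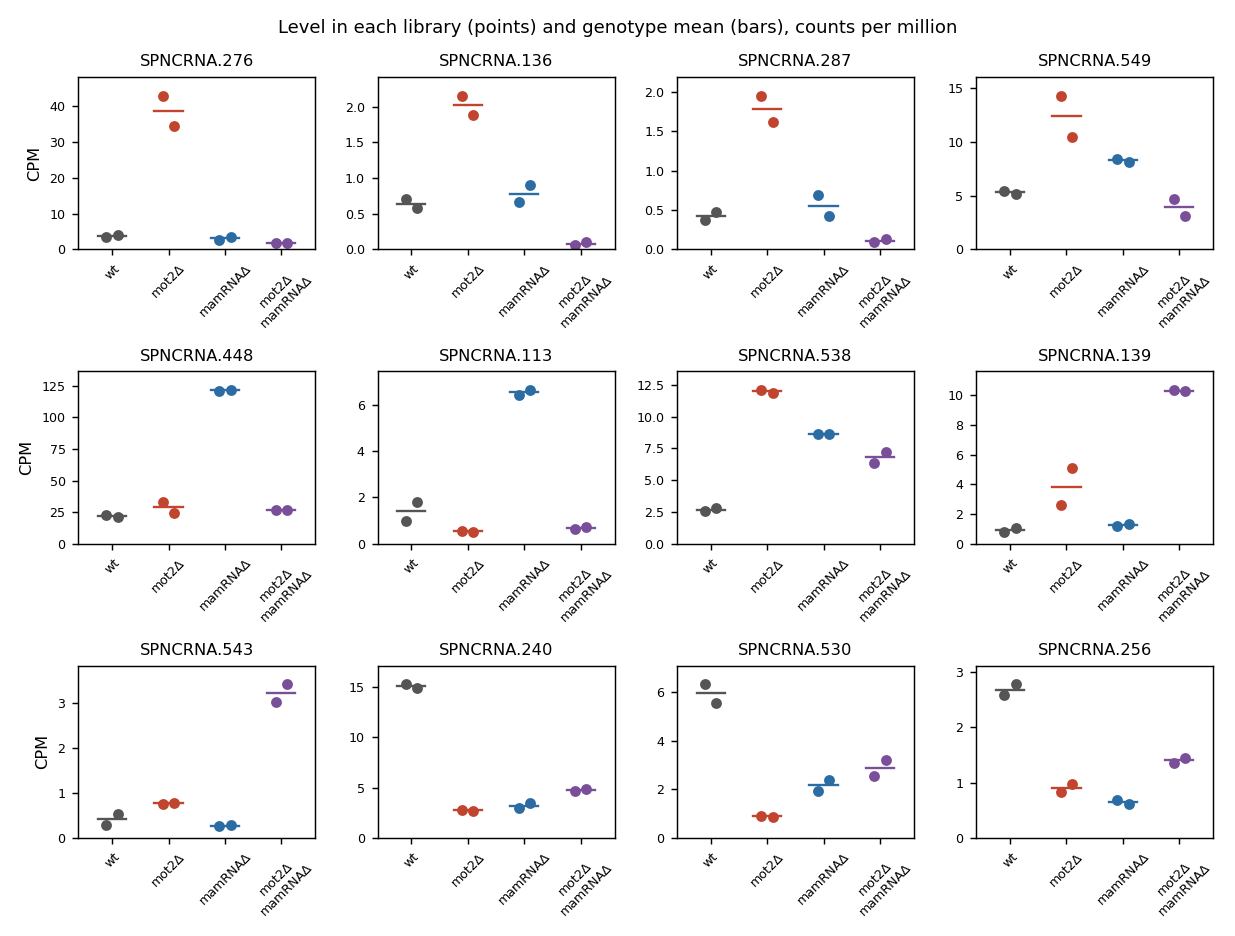
Level of 12 noncoding RNAs in each library, in CPM on linear axes that start at 0, with 2 points and a bar at their mean for each genotype. SPNCRNA.276, SPNCRNA.136, SPNCRNA.287, SPNCRNA.538 and SPNCRNA.549 are highest in mot2∆, SPNCRNA.448 and SPNCRNA.113 in mamRNA∆, SPNCRNA.139 and SPNCRNA.543 in mot2∆ mamRNA∆, and SPNCRNA.240, SPNCRNA.530 and SPNCRNA.256 in wt.

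On loss of mamRNA in cells that already lacked Mot2 (mot2∆ mamRNA∆ against mot2∆), several of the RNAs that were high in mot2∆ were lower. This comparison shares the mot2∆ libraries with that of mot2∆ against wt, so RNAs picked as high in mot2∆ lean toward a fall here. 16 of the 221 well counted noncoding RNAs were called higher, 7.24% beside 2.15% of the 6620 features tested, and 11 were called lower, 4.98% beside 4.59%. The share called lower was near that of all features. Their median log2 fold change was 0.099, beside -0.0058 over all features tested. SPNCRNA.276 changed by -4.47 ± 0.17 (edgeR adjusted p = 9.24e-10), from 42.9 and 34.4 CPM to 1.78 and 1.68, and gto1 by -3.64 ± 0.10 (edgeR adjusted p = 5.89e-11). SPNCRNA.136, near the left end of chromosome I and 567 bases from the cell surface glycoprotein gene pfl6, had 15 and 16 counts in wt, 65 and 58 in mot2∆, 20 and 32 in mamRNA∆, then 2 and 3 in mot2∆ mamRNA∆. It changed by -4.61 ± 0.38 (edgeR adjusted p = 1.20e-06), and pfl6 by -7.69 ± 0.21 (edgeR adjusted p = 3.81e-11). SPNCRNA.287, near the left end of chromosome II and 356 bases from the glycoprotein gene SPBC1348.08c, had 8 and 13 counts in wt, 59 and 50 in mot2∆, 21 and 15 in mamRNA∆, then 3 and 4 in mot2∆ mamRNA∆ and changed by -3.97 ± 0.38 (edgeR adjusted p = 4.47e-06), beside -7.42 ± 0.24 (edgeR adjusted p = 2.30e-10) for that gene. SPNCRNA.136 and SPNCRNA.287 share 79.4% of their 75-base windows, so their counts are not separate measurements where reads were shared. With 2 counts over the mot2∆ mamRNA∆ libraries, SPNCRNA.30 stood at 0.0209 (exact 95% interval 0.00249 to 0.0777, counting error only) of its level in mot2∆. SPNCRNA.549, between SPCC1739.08c and the cytochrome oxidase gene cox13, stood at 5.45 and 5.17 CPM in wt, 14.3 and 10.5 in mot2∆, 8.46 and 8.13 in mamRNA∆, then 4.72 and 3.10 in mot2∆ mamRNA∆ and changed by -1.65 ± 0.19 (edgeR adjusted p = 1.71e-05).

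The RNAs that rose in the same comparison included some that had fallen in mot2∆. Since the mot2∆ libraries are shared, RNAs picked as low in mot2∆ lean toward a rise here. The snoRNA sno530 went from 0.895 and 0.878 CPM to 2.54 and 3.20, a log2 fold change of 1.69 ± 0.22 (edgeR adjusted p = 5.80e-05), and stayed below wt by -1.05 ± 0.17 (edgeR adjusted p = 1.89e-04), under the fold threshold without the first wt or the first mot2∆ mamRNA∆ library (-0.94 and -0.87). SPNCRNA.529, opposite the ubiquitin ligase gene dbl4, stood at 3.38 and 2.82 CPM in wt, 2.09 and 2.15 in mot2∆, 5.17 and 3.90 in mamRNA∆, then 6.93 and 7.16 in mot2∆ mamRNA∆ and changed by 1.73 ± 0.17 (edgeR adjusted p = 5.85e-06), beside 0.31 ± 0.072 (edgeR adjusted p = 0.00297) for dbl4. SPNCRNA.543 changed by 2.06 ± 0.22 (edgeR adjusted p = 1.08e-05) and SPNCRNA.317 by 2.06 ± 0.34 (edgeR adjusted p = 2.76e-04). SPNCRNA.473 had 8 and 26 counts in wt, 7 and 6 in mot2∆, 20 and 22 in mamRNA∆, then 17 and 24 in mot2∆ mamRNA∆ and changed by 1.58 ± 0.49 (edgeR adjusted p = 0.0149), and this call was lost without either mot2∆ library or without the second mot2∆ mamRNA∆ library (edgeR adjusted p = 0.0543, 0.0749 and 0.109). SPNCRNA.586, chosen after its values were seen and lying inside the phosphatase gene ptc2, had 518 and 672 counts in wt, 1041 and 1072 in mot2∆, 1162 and 1212 in mamRNA∆, then 2885 and 2850 in mot2∆ mamRNA∆. It changed by 1.39 ± 0.073 (edgeR adjusted p = 2.51e-08) against mot2∆ and by 1.32 ± 0.072 (edgeR adjusted p = 3.19e-08) against mamRNA∆. The 10 well counted RNAs called higher whose values are not given one by one had log2 fold changes between 1.09 and 1.52 (median 1.297), and the 6 such RNAs called lower between -1.42 and -1.01 (median -1.22). DESeq2 called 14 of the 247 tested noncoding RNAs higher in this comparison, against 24 by edgeR. By edgeR, 5.18% of the 251 tested noncoding RNAs numbered from 600 to below 1200 were called higher and 6.37% lower. For the 210 numbered 1200 and above the shares were 4.76% and 6.67%.

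Loss of Mot2 in cells that already lacked mamRNA (mot2∆ mamRNA∆ against mamRNA∆) gave calls in both directions. 21 of the 221 well counted noncoding RNAs were called higher, 9.5% beside 4.15% of the 6620 features tested, and 32 were called lower, 14.5% beside 5.71%. Their median log2 fold change was -0.20, beside -0.024 over all features tested. SPNCRNA.113 and SPNCRNA.448, the RNAs with the largest rises on loss of mamRNA alone, changed by -3.27 ± 0.23 (edgeR adjusted p = 1.98e-07) and -2.20 ± 0.10 (edgeR adjusted p = 9.61e-09), and both of their mot2∆ mamRNA∆ libraries lay below those of mamRNA∆. Both comparisons use the mamRNA∆ libraries, so RNAs picked as high in mamRNA∆ lean toward a fall here. Against wt, mot2∆ mamRNA∆ differed by -1.08 ± 0.30 (edgeR adjusted p = 0.00868) and 0.28 ± 0.11 (edgeR adjusted p = 0.0442). SPNCRNA.543, SPNCRNA.139 and SPNCRNA.317 rose by 3.54 ± 0.27 (edgeR adjusted p = 4.21e-07), 3.05 ± 0.25 (edgeR adjusted p = 8.79e-07) and 3.002 ± 0.38 (edgeR adjusted p = 2.97e-05). The mat3 flanking RNAs rose again, SPNCRNA.390 by 2.08 ± 0.34 (edgeR adjusted p = 2.05e-04) and SPNCRNA.389 by 1.93 ± 0.43 (edgeR adjusted p = 0.00204). SPNCRNA.136 changed by -3.25 ± 0.46 (edgeR adjusted p = 7.37e-05), from 20 and 32 counts in mamRNA∆ to 2 and 3. SPNCRNA.275, SPNCRNA.293 and SPNCRNA.301 changed by -2.66 ± 0.27 (edgeR adjusted p = 4.26e-06), -2.84 ± 0.42 (edgeR adjusted p = 1.07e-04) and -2.29 ± 0.34 (edgeR adjusted p = 1.06e-04). The 10 well counted RNAs called higher whose values are not given one by one had log2 fold changes between 1.01 and 1.77 (median 1.23), and the 26 such RNAs called lower between -2.27 and -1.0 (median -1.20). Called higher and lower were 2.79% and 15.1% of the 251 tested noncoding RNAs numbered from 600 to below 1200. For the 210 numbered 1200 and above the shares were 3.81% and 16.7%, so the share called lower was not particular to the RNAs numbered below 600.

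The same deletion can be followed in 2 backgrounds that share no library. Of the 221 well counted RNAs, loss of Mot2 was called higher in 7 and lower in 19 both with and without mamRNA, which is 33.3% of the 21 and of the 21 called higher, and 51.4% of the 37 and 59.4% of the 32 called lower, and 4 were called in opposite directions. Over all features tested these shares were 19% and 21.5% for higher, and 49% and 33.3% for lower. Across the 221 RNAs, which share library depth and normalization, the log2 fold changes of the 2 comparisons correlated at a Pearson r of 0.346. Over all 6620 features tested the r was 0.289. For loss of mamRNA, with and without Mot2, 18 and 16 were called higher and 7 and 11 lower, and the number called in the same direction in both was 0 by edgeR and 0 by DESeq2, with 2 called in opposite directions by edgeR. At an unadjusted p under 0.05 from edgeR and no fold threshold it was 21 higher and 6 lower, with 18 in opposite directions, and r was 0.028. Over all features 12 were called higher in both, which is 7.19% and 8.45% of those called higher in each, and 19 lower, which is 19.6% and 6.25%, with an r of -0.00312. With so few RNAs called in each background, a count of 0 is not far from these shares. Of the 247 tested noncoding RNAs 3 were called higher in both, all of them near 0. RNAs near 0 passed the filter through the libraries in which they were high, so these calls are no evidence about the group.

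**Figure D4:**
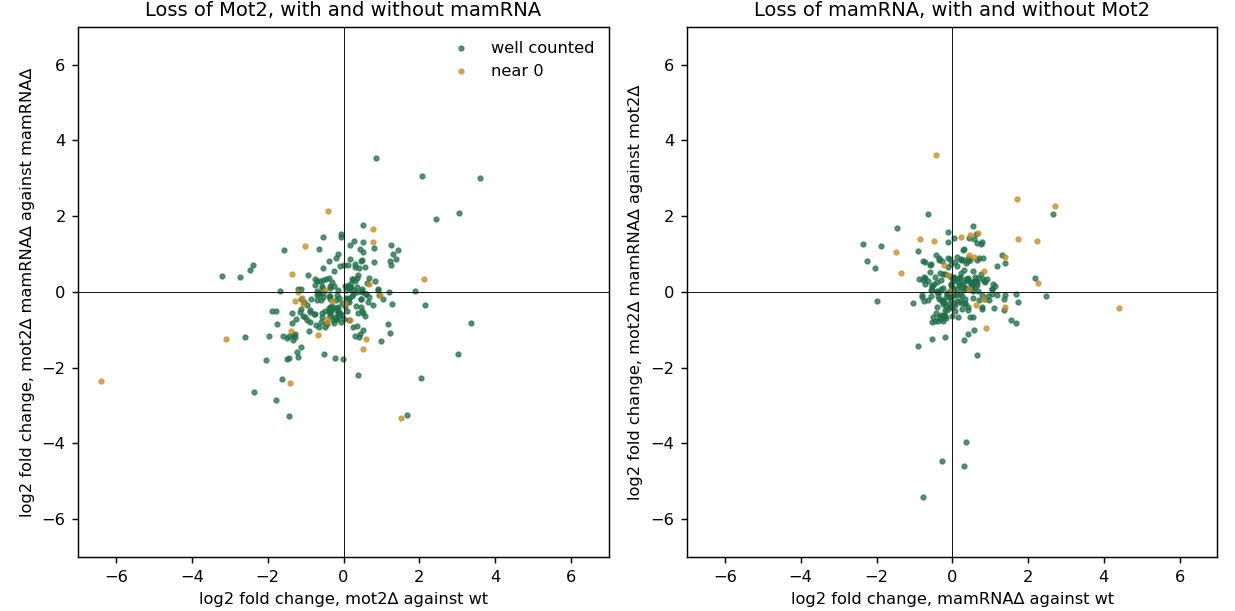
Log2 fold change of the 247 noncoding RNAs tested for loss of Mot2 (left) and of mamRNA (right), each in cells that keep the other factor (horizontal axis) and cells that lack it (vertical axis), with well counted RNAs in green and those near 0 in amber. The points SPNCRNA.30, SPNCRNA.136, SPNCRNA.276 and SPNCRNA.287 lie far down in the right panel, and the amber point at the far left of the left panel is SPNCRNA.446, a fitted value with no count in mot2∆.

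The difference between the responses was tested as an interaction, the log2 fold change of losing Mot2 in mamRNA∆ cells minus that in cells with mamRNA. 20 of the 221 well counted noncoding RNAs were called above 0, 9.05% beside 4.46% of the 6620 features tested, and 24 were called below 0, 10.9% beside 6.69%. Their median log2 value was -0.045, beside 0.0029 over all features tested. With libraries scaled by total counts instead of TMM, which moved the median of all features to -0.11, 15 of the 247 noncoding RNAs tested were called above 0 and 33 below, against 22 and 27 with TMM. The lowest values were those of SPNCRNA.136, SPNCRNA.30 and SPNCRNA.287, at -4.92 ± 0.53 (edgeR adjusted p = 1.30e-05), -4.64 ± 1.35 (edgeR adjusted p = 0.0138) and -4.32 ± 0.58 (edgeR adjusted p = 7.39e-05). The call for SPNCRNA.30 was lost without the second mamRNA∆ library (-3.065, edgeR adjusted p = 0.35), and with 2 counts in mot2∆ mamRNA∆ its fitted value depends on few reads. SPNCRNA.276 had -4.19 ± 0.27 (edgeR adjusted p = 1.72e-07) and SPNCRNA.448 -2.59 ± 0.15 (edgeR adjusted p = 8.35e-08). The highest were those of SPNCRNA.319, sno530 and SPNCRNA.90, at 3.63 ± 0.63 (edgeR adjusted p = 5.81e-04), 3.14 ± 0.28 (edgeR adjusted p = 3.51e-06) and 3.09 ± 0.43 (edgeR adjusted p = 1.08e-04), and SPNCRNA.240, counted more deeply, had 3.04 ± 0.19 (edgeR adjusted p = 1.77e-07). In each of these 4 RNAs both wt libraries lay above all 6 mutant libraries, and both mot2∆ mamRNA∆ libraries lay above both mot2∆ libraries. Of the 22 noncoding RNAs tested that were called higher in mot2∆, 12 had an interaction called below 0. Of the 40 called lower, 9 had one called above 0 and 1 below. These counts share libraries with the mot2∆ comparison, whose change the interaction subtracts, so any feature called there leans toward an opposite interaction. The same shares over all features were not taken, so the counts are no result about these RNAs. The 15 well counted RNAs called above 0 whose values are not given one by one had values between 1.07 and 2.69 (median 1.38), and the 19 such RNAs called below 0 between -2.50 and -1.01 (median -1.57). Of the 251 tested noncoding RNAs numbered from 600 to below 1200, 5.98% were called above 0 and 14.7% below, and of the 210 numbered 1200 and above 5.24% and 12.9%.

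Some of the RNAs that moved lay beside a coding gene that moved the same way. For 195 noncoding RNAs with a position and a nearest coding gene among the features tested, the log2 fold changes of the RNA and the gene in mot2∆ against wt correlated at a Pearson r of 0.444 and a Spearman rho of 0.291. The Pearson r was 0.739 over the 50 that overlap the gene (Spearman rho 0.637) and 0.401 over the 145 that do not (rho 0.177). In mot2∆ mamRNA∆ against mot2∆ the Pearson r was 0.651 over the 195, with a Spearman rho of 0.34. It was 0.834 over the overlapping pairs (rho 0.719) and 0.618 over the others (rho 0.219), so the ranks were much less alike than the values for RNAs clear of coding genes. In mamRNA∆ against wt the Pearson r was 0.186 over the 195 (rho 0.203), 0.683 over the overlapping pairs and 0.103 over the others. The points share libraries, and overlapping pairs can share reads. Of the 48 called in mot2∆ against wt, 10 had a gene called in the same direction and 2 one called in the other, and of the 147 not called 13 had a called gene. In mamRNA∆ against wt 1 of 27 called RNAs (3.7%) had a gene called in the same direction, beside a called gene for 8 of the 168 not called (4.76%). In mot2∆ mamRNA∆ it was 12 of 46 against wt, beside 12 of 149 not called, 8 of 32 against mot2∆, beside 10 of 163, and 15 of 55 against mamRNA∆, beside 7 of 140. Among RNAs clear of coding genes alone it was 5 of 29, beside 10 of 116, 4 of 24, beside 9 of 121, and 9 of 43, beside 5 of 102. In mot2∆ against wt it was 7 of 35 for these RNAs, beside 12 of 110 not called. The genes beside SPNCRNA.136 and SPNCRNA.287 moved more than the RNAs in mot2∆. There, pfl6 changed by 7.45 ± 0.21 (edgeR adjusted p = 6.54e-11) and SPBC1348.08c by 8.15 ± 0.28 (edgeR adjusted p = 3.73e-10), beside 1.66 ± 0.26 (edgeR adjusted p = 1.82e-04) and 2.05 ± 0.31 (edgeR adjusted p = 1.25e-04). In mamRNA∆ the same 2 genes changed by 3.66 ± 0.29 (edgeR adjusted p = 1.68e-06) and 4.13 ± 0.40 (edgeR adjusted p = 9.42e-06), where SPNCRNA.136 changed by 0.31 and SPNCRNA.287 by 0.35 (edgeR adjusted p = 0.440 and 0.486).

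**Figure D5:**
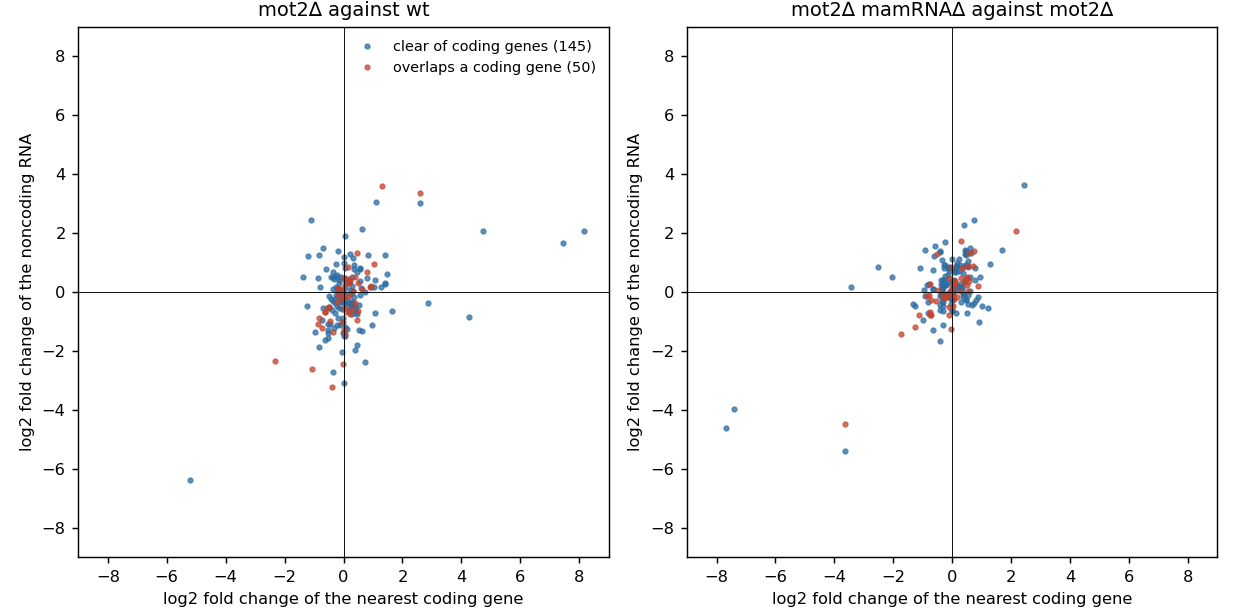
Log2 fold change of 195 noncoding RNAs (vertical axis) and of their nearest coding gene (horizontal axis) in mot2∆ against wt (left) and mot2∆ mamRNA∆ against mot2∆ (right), with RNAs clear of coding genes in blue and those that overlap one in red. The pairs at the lower left of the right panel are SPNCRNA.136 with pfl6, SPNCRNA.287 with SPBC1348.08c, and SPNCRNA.276 and SPNCRNA.30 with gto1.

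The centromeric noncoding RNAs, transcripts of the repeats from which the RNAi machinery makes small RNAs, formed a group of 29. They were taken as those in the stretches without coding genes between per1 and emc5 on chromosome I (7 RNAs), rpb1 and yox1 on II (16) and chk1 and ppc1 on III (6). Of them, 12 were well counted, 7 had no count in any library, and the group held 253 to 675 counts per library. Their summed level was 11.9 and 14.1 CPM in wt, 16.8 and 18.0 in mot2∆, 11.6 and 11.7 in mamRNA∆, then 20.4 and 19.5 in mot2∆ mamRNA∆, so that the libraries without Mot2 lay above those with it. All 12 well counted RNAs had a log2 fold change above 0 in mot2∆ mamRNA∆ against mamRNA∆, with a median of 0.81. In 10 of them the edgeR adjusted p was under 0.05, and 4 also passed the fold threshold, beside 4.15% of all features. By the adjusted p alone, 1958 of the 6620 features tested were higher in this comparison. The RNAs past both thresholds were SPNCRNA.232 at 1.24 ± 0.26 (edgeR adjusted p = 0.00130), SPNCRNA.362 at 1.24 ± 0.21 (edgeR adjusted p = 2.92e-04), SPNCRNA.366 at 1.01 ± 0.38 (edgeR adjusted p = 0.0378) and SPNCRNA.371 at 1.16 ± 0.36 (edgeR adjusted p = 0.0147). In mot2∆ against wt 10 of the 12 were above 0, with a median of 0.34, and SPNCRNA.232 was called at 1.26 ± 0.30 (edgeR adjusted p = 0.00348). In mamRNA∆ against wt 5 of the 12 were above 0, with a median of -0.088. Of the 29 RNAs, 24 hold 75-base windows that occur more than once in the genome. The way reads with several positions were counted is not given in the sources used here, so single RNAs of this group are uncertain. Some also share windows with each other, such as SPNCRNA.371, of which 100% lie in SPNCRNA.362. Where reads were shared, the 12 RNAs are not separate measurements, which limits the counts of RNAs above 0. SPNCRNA.232, SPNCRNA.362, SPNCRNA.366 and SPNCRNA.371 were chosen after their values were seen. The call for SPNCRNA.232 was lost without the first mot2∆ mamRNA∆ library (log2 fold change 0.95), that for SPNCRNA.371 without the first mamRNA∆ or the second mot2∆ mamRNA∆ library (0.98 and 0.91), and that for SPNCRNA.366 without the first mamRNA∆ library or either mot2∆ mamRNA∆ library (0.66, 0.87 and 1.13). DESeq2 called neither SPNCRNA.366 nor SPNCRNA.371, and with scaling by total counts SPNCRNA.366 was not called (log2 fold change 0.926).

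Of the centromeric RNAs, nam5 and nam6 were not called in any comparison. The RNA nam5 stood at 1.78 and 2.17 CPM in wt, 2.09 and 2.67 in mot2∆, 1.98 and 1.67 in mamRNA∆, then 2.33 and 2.25 in mot2∆ mamRNA∆ and nam6 at 0.751 and 0.796 CPM in wt, 1.06 and 1.01 in mot2∆, 0.988 and 0.734 in mamRNA∆, then 1.1 and 1.49 in mot2∆ mamRNA∆. Their log2 fold changes were 0.25 ± 0.21 (edgeR adjusted p = 0.311) and 0.41 ± 0.29 (edgeR adjusted p = 0.234) in mot2∆, -0.14 ± 0.21 (edgeR adjusted p = 0.627) and 0.14 ± 0.29 (edgeR adjusted p = 0.748) in mamRNA∆, and 0.20 ± 0.21 (edgeR adjusted p = 0.435) and 0.75 ± 0.27 (edgeR adjusted p = 0.0301) in mot2∆ mamRNA∆ against wt. The 2 RNAs share 79.7% and 79.2% of their 75-base windows with each other, and all windows of both occur more than once in the genome.

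Other RNAs with a name of their own covered several roles. SPNCRNA.111 is rse1, annotated as a cis-acting repressor of ste11, the transcription factor gene that starts sexual differentiation. It stood at 186 and 184 CPM in wt, 228 and 272 in mot2∆, 137 and 127 in mamRNA∆, then 288 and 292 in mot2∆ mamRNA∆, lowest in mamRNA∆ and highest in mot2∆ mamRNA∆. It was called in mot2∆ mamRNA∆ against mamRNA∆, at 1.13 ± 0.083 (edgeR adjusted p = 3.15e-07), and changed by 0.43 ± 0.083 (edgeR adjusted p = 7.28e-04) in mot2∆ and -0.49 ± 0.083 (edgeR adjusted p = 6.87e-04) in mamRNA∆, under the fold threshold. SPNCRNA.497 is the snoRNA snR48 inside rps3, a ribosomal protein gene, and stood at 2.82 and 2.53 CPM in wt, 3.08 and 4.26 in mot2∆, 4.41 and 4.10 in mamRNA∆, then 3.45 and 4.09 in mot2∆ mamRNA∆, with no call. Per kilobase it drew 0.0372 times the counts of rps3. SPNCRNA.532, merged into nam3, stood at 7.79 and 9.80 CPM in wt, 6.90 and 6.99 in mot2∆, 5.43 and 5.20 in mamRNA∆, then 5.60 and 6.24 in mot2∆ mamRNA∆, also with no call in these comparisons (its log2 fold change in mamRNA∆ was -0.74 ± 0.14 (edgeR adjusted p = 0.00141)).

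The RNAs most like those with the largest interactions were sought by the correlation of log2 levels over the 8 libraries, among all features tested. The pattern of sno530 was nearest to those of SPAP8A3.07c and the snoRNA snoZ30, at r = 0.989 and 0.986. SPNCRNA.136 was nearest to SPNCRNA.601, which it overlaps, at r = 0.9985. SPNCRNA.287 was nearest to SPCC1281.07c at 0.992, SPNCRNA.30 to the kinetochore gene duo1 at 0.983, SPNCRNA.319 to the Aurora kinase gene ark1 at 0.982 and SPNCRNA.90 to SPNCRNA.1359 at 0.965. These are descriptions over 8 libraries in 4 groups.

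The 129 noncoding RNAs near 0 were measured too thinly for most comparisons. The 103 that did not pass the filter had no test. The 26 that passed did so through the libraries in which they were high, so their number of calls is no evidence about the group. They gave 1 call higher and 3 lower in mot2∆ against wt, 5 and 2 in mamRNA∆, then 4 and 2 in mot2∆ mamRNA∆. In all, 17 were called in at least 1 comparison. SPNCRNA.201, beside the hexokinase gene hxk2, had 3 and 3 counts in wt, 4 and 9 in mot2∆, 9 and 4 in mamRNA∆, then 27 and 13 in mot2∆ mamRNA∆ and differed from wt in mot2∆ mamRNA∆ by 2.32 ± 0.61 (edgeR adjusted p = 0.00571). SPNCRNA.226, beside the farnesyltransferase gene cpp1, had 2 and 3 counts in wt, 3 and 4 in mot2∆, 12 and 21 in mamRNA∆, then 8 and 11 in mot2∆ mamRNA∆ and changed by 2.25 ± 0.52 (edgeR adjusted p = 0.00483) in mamRNA∆. SPNCRNA.255, between the cell wall genes gas1 and bgs3, had 1 and 6 counts in wt, 1 and 3 in mot2∆, 22 and 9 in mamRNA∆, then 12 and 12 in mot2∆ mamRNA∆ and changed by 2.46 ± 0.80 (edgeR adjusted p = 0.0198) in mot2∆ mamRNA∆ against mot2∆. These 3 calls were lost without some libraries, that of SPNCRNA.201 without the second wt or the first mot2∆ mamRNA∆ library (edgeR adjusted p = 0.0709 and 0.0599), that of SPNCRNA.226 without the second mamRNA∆ library (0.0544) and that of SPNCRNA.255 without the first mot2∆ or the second mot2∆ mamRNA∆ library (0.125 and 0.0605). SPNCRNA.446 and SPNCRNA.385 were chosen after their values were seen. SPNCRNA.446 had 7 and 10 counts in wt, 0 and 0 in mot2∆, 10 and 7 in mamRNA∆, then 0 and 3 in mot2∆ mamRNA∆. Its wt level was 7.05 times the level that 3 counts over the mot2∆ libraries would give, the floor set for 0 counts. That value leaves out the counting error of the wt counts, so the fall may be smaller. SPNCRNA.385 had 0 and 1 counts in wt, 1 and 3 in mot2∆, 19 and 15 in mamRNA∆, then 1 and 2 in mot2∆ mamRNA∆, a ratio of mamRNA∆ to wt of 25.3 (exact 95% interval 4.24 to 1028, counting error only).

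Genes of the pathways around these RNAs gave a frame for the changes. Of 7 Mmi1 targets, 5 were called higher in mot2∆ (crs1, mei4, rec8, sme2 and spo5), beside 4.68% of all features tested. The list median was 1.105, beside -0.0069 over all features. In mot2∆ mamRNA∆ against mot2∆ 6 of the 7 were called lower, beside 4.59% of all features tested, with a median of -2.06. In mot2∆ mamRNA∆ against wt 1 was called higher and 3 lower (crs1, mcp5, mei4 and ssm4), with a median of -0.97. The shares of all features were 3.04% and 5.76%. In mamRNA∆ against wt crs1 was called higher, beside 2.52%. Against mamRNA∆, mcp5 and ssm4 were called lower in mot2∆ mamRNA∆, beside 5.71%. All 7 had an interaction called below 0, beside 6.69% of all features tested. SPNCRNA.136, SPNCRNA.30, SPNCRNA.287 and SPNCRNA.276 also had one called below 0. These RNAs were named for their large changes in these comparisons, so the shared sign follows largely from that choice. A link between them and Mmi1 was not tested. Of 30 genes of nuclear RNA elimination, the exosome and transcript termination, 10 rose and 10 fell in mot2∆ and 4 rose and 11 fell in mamRNA∆ by an edgeR adjusted p under 0.05, each by less than the fold threshold, and erh1 and seb1 passed both thresholds in mot2∆ mamRNA∆ against wt. Of 17 RNAi and heterochromatin genes, 4 rose and 5 fell in mot2∆ and 4 rose and 2 fell in mamRNA∆ by the same p, each by less than the fold threshold. By that p alone, 1924 of the 6620 features tested rose and 1996 fell in mot2∆, and 1315 rose and 1500 fell in mamRNA∆. The lists were not tested against these numbers. Among the 17, clr4 and rdp1 were called in mot2∆ mamRNA∆ against mot2∆ and arb1 against mamRNA∆. Of the 7 Ccr4-Not subunits counted, mot2 was the only one called, in each comparison that removed it.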

How the data were processed

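RNA was sequenced from 8 libraries, 2 for each of 4 genotypes. The authors deposited raw read counts per annotated feature, 1 table per library. Per the submitters' processing notes and the study's methods, base calls were converted with bcl2fastq 2.18.12, adapters trimmed with cutadapt 1.15 and reads aligned with Bowtie2. The genome build, the annotation, any use of strand and the treatment of reads with several positions are not given in the sources used here. The tables held 0 columns of other samples.

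These counts entered edgeR 4.0.16 in R 4.3.3. Low features were removed by filterByExpr (10 counts, 15 in total), TMM scaling was used, and 1 model with a coefficient for each genotype was fitted to all 8 libraries. Two-sided quasi-likelihood F tests gave p-values, adjusted by Benjamini-Hochberg over 6620 features. Calls needed an adjusted p below 0.05 with a log2 fold change past 1 in size, and the SE is the size of the log2 fold change over the square root of F. Ratios with 1 to 3 counts in a genotype have exact 95% intervals, and a genotype with 0 counts was set to a floor of 3, for counting error only. The steps were tested on simulated data.

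The noncoding RNAs and the lists (Mmi1 targets, nuclear RNA elimination, exosome and termination factors, RNAi and heterochromatin factors, Ccr4-Not subunits) were chosen with earlier results of these data known. Named were the 10 with the highest mean CPM, the 5 largest called changes in each direction of each comparison between genotypes among well counted RNAs whose libraries did not overlap, the 3 largest called interactions in each direction, 3 called RNAs near 0 with the highest single count, those with a symbol in the annotation, and the features most like the 6 RNAs with the largest interactions by the Pearson r of log2 CPM (prior count 2). Alternatives were RLE size factors, total-count scaling, DESeq2 1.42.0, no filter, a mean of at least 30 counts, no fold threshold, only the genotypes compared, a replicate block, other limits for well counted RNAs and each library left out. Positions, neighbours, hexamers and sequences came from RefSeq ASM294v3, joined by name.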

Additional observations from a re-analysis of the deposited data

Results flagged for a closer look

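The response to loss of Mot2 differed between cells with and without mamRNA, by the interaction test of edgeR with an adjusted p below 0.05 and a log2 value past 1 in size, in 22 noncoding RNAs with a more positive response without mamRNA and 27 with a more negative one, of 247 tested. These are 8.91% and 10.9%, beside 4.46% and 6.69% of the 6620 features tested. The 247 include 26 RNAs near 0, which passed the filter through the libraries in which they were high. Among the well counted RNAs the interaction was highest for SPNCRNA.319 (3.63), SPNCRNA.530 (3.14) and SPNCRNA.90 (3.09). It was lowest for SPNCRNA.136 (-4.92), SPNCRNA.30 (-4.64) and SPNCRNA.287 (-4.32).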

How the results depend on the processing

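Of the 247 noncoding RNAs tested, 22 were called higher and 40 lower in mot2∆ against wt, 23 and 9 in mamRNA∆ against wt, 22 and 32 in mot2∆ mamRNA∆ against wt, 24 and 11 in mot2∆ mamRNA∆ against mot2∆, 25 and 39 in mot2∆ mamRNA∆ against mamRNA∆, and 22 and 27 as interactions above and below 0. In the same order, with only features of a mean of at least 30 counts tested the calls were 13 and 24, 11 and 4, 13 and 16, 8 and 5, 13 and 16, and 14 and 16, since fewer RNAs entered the test. Without the fold threshold they were 44 and 72, 65 and 24, 51 and 62, 56 and 35, 44 and 84, and 35 and 42. DESeq2 called 14 RNAs higher in mot2∆ mamRNA∆ against mot2∆, and the cause was not tested. Leaving out each library gave 21 to 23 and 30 to 42, 20 to 23 and 7 to 10, 21 to 23 and 22 to 35, 17 to 22 and 8 to 12, 18 to 25 and 31 to 39, and 16 to 22 and 20 to 27, with a lone library assumed to vary like the other genotypes. All other counts under RLE size factors, total-count scaling, DESeq2, no filter and only the genotypes compared were within 1.5 times. The number of well counted RNAs was 280 at a mean of at least 3 counts and 154 at 30.

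All 82 log2 fold changes followed for named RNAs kept their direction in 1218 refits. Calls were lost in 20 refits without 1 library, in 2 with total-count scaling and in 2 with DESeq2, for the RNAs and libraries given beside the results.

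Replicate numbers were not shown to pair the libraries. The deviations of same-numbered libraries correlated between genotypes at -0.108 to 0.163. With a replicate block the calls were 22 and 41, 22 and 9, 22 and 32, 25 and 11, 24 and 37, and 24 and 27. With the numbers of the mamRNA∆ libraries exchanged (crossed), a pairing chosen after seeing the data because of the correlation of -0.108 between mamRNA∆ and mot2∆ mamRNA∆, they were 22 and 41, 25 and 9, 23 and 32, 25 and 11, 25 and 38, and 23 and 27.

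Depth limits the 103 noncoding RNAs near 0 that were not tested and the RNAs with few counts in 1 genotype, and repeated sequence limits the 31 with 75-base windows that occur more than once.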
